A study of Mus musculus with 5 samples.

Results

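The genes described here encode receptors for sphingosine 1-phosphate (S1P) and adhesion receptors of developing T cells. They are the S1P receptor genes S1pr1, S1pr3 and S1pr4, the integrin chain genes Itga4, Itgb7 and Itgae, and Cd44. They were chosen by name: every probe set whose symbol in the deposited expression table, current or older (Edg1, Edg3 and Edg6 for the S1P receptors), belonged to 1 of these 7 genes was taken. This gave 20 of the 45101 probe sets on the arrays. The samples were thymic cell suspensions of male CD-1 mice aged 4 to 6 weeks, an outbred stock, and each of the 5 arrays measured RNA of 1 pool from 3 animals. The 5 groups had 1 array each. A single pool was untreated, and a pair of pools was taken 4 h after phosphate-buffered saline (PBS) or 0.2 mg dexamethasone per animal was injected into the peritoneum. The remaining pools were cultured for 4 h at 37 °C and 5% CO2 with 0.1% ethanol, or with dexamethasone at a concentration written in the labels as 10e-7 M. Dexamethasone is a synthetic glucocorticoid, and the design compares each treated sample with its PBS or ethanol control.

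S1P is a lipid that is abundant in blood and lymph and kept low inside lymphoid tissue. Mature thymocytes carry S1PR1, a receptor coupled to inhibitory G proteins, and follow the S1P gradient out of the thymus, while CD69 binds S1PR1 and removes it from the cell surface. The integrin alpha4 chain (Itga4) pairs with beta7 (Itgb7) or beta1 to bind VCAM-1, MAdCAM-1 and fibronectin, the alphaE chain (Itgae, also CD103) pairs with beta7 to bind E-cadherin, and CD44 binds hyaluronan.

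Values are the authors' deposited log2 levels after RMA, a method that background-corrects, quantile-normalises and summarises the probes of each probe set. A difference is between the log2 levels of a pair of arrays, and a difference of at least 1 (2-fold) was counted. With a single array per group, precision is limited by the number of arrays, and these differences come without replicates or a test. Where a gene had several probe sets, the one with the highest mean over the 5 arrays represents it, and levels are compared only within a probe set. All 7 genes were among the 9882 of 19764 named genes whose mean level reached the median over genes. S1pr3 did so through its levels in the untreated and injected animals. Of the 20 probe sets, 4 (3 of Itga4 and 1 of Cd44) lay under the lower quartile of all probe sets on every array and are not described further. Transcripts of double-positive thymocytes, the main cell of this tissue, were high on the untreated array, where Rag1 stood at 12.10, Cd8a at 11.92 and Cd4 at 9.99. In a suspension of mixed cells, fewer cells of a type and less RNA per cell cannot be told apart.

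**Figure D1:**
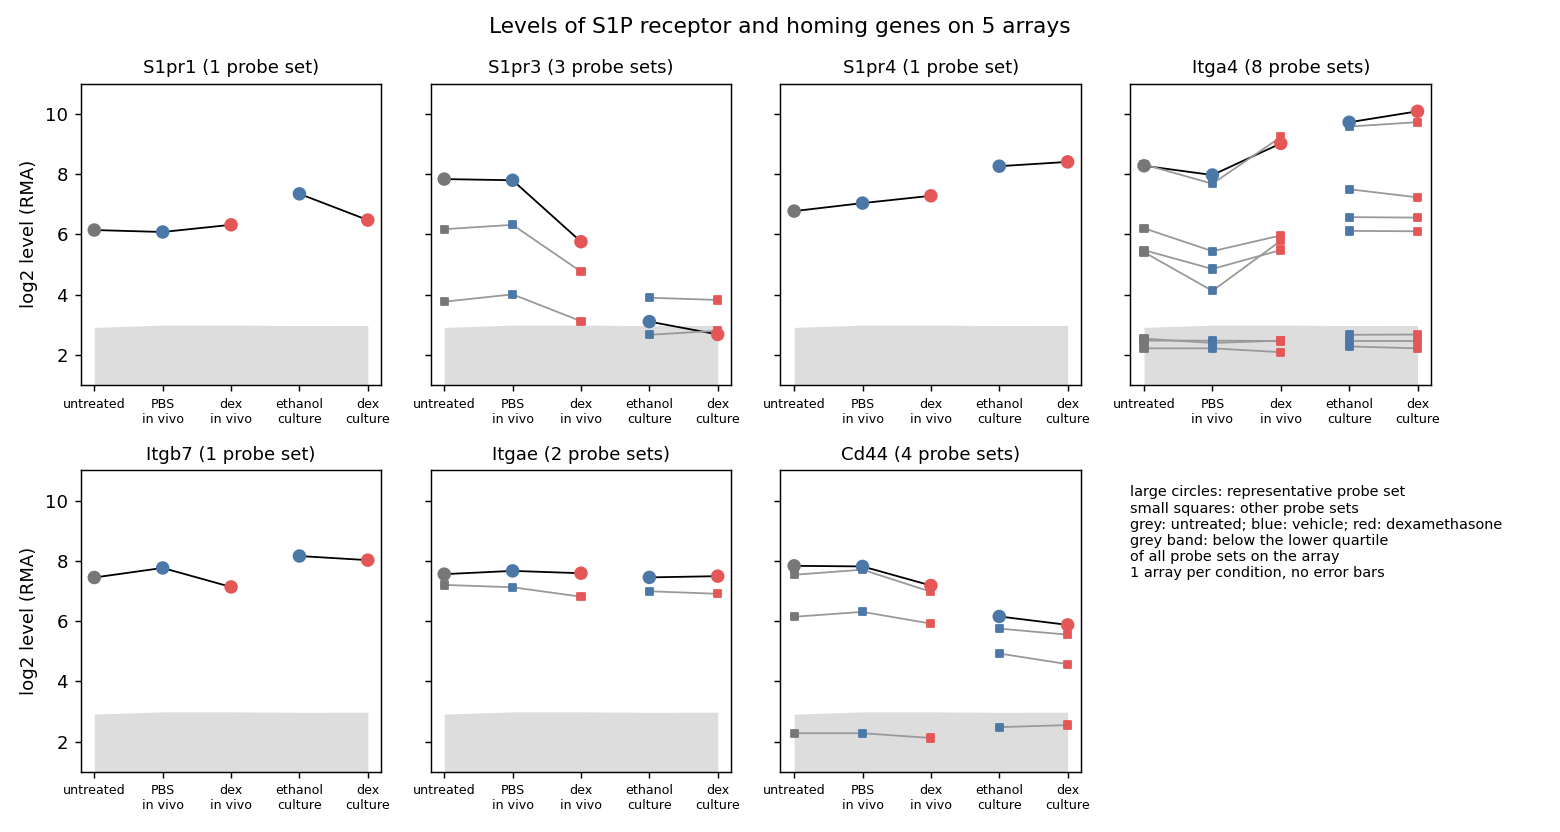
Log2 level (y axis) of every probe set of the 7 genes on the 5 arrays (x axis), with 1 array per condition and no error bars. S1pr3 runs from 7.83 untreated down to 2.68 in cultured dexamethasone, Itga4 and S1pr4 stand highest on the cultured arrays, and Itgae is nearly flat.

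S1pr3, a receptor known mainly from endothelial and other non-lymphoid cells, had the largest difference of the 7 genes between injected dexamethasone and PBS. Its representative probe set read 7.83 untreated, 7.79 with PBS, 5.76 with injected dexamethasone, 3.10 in ethanol culture and 2.68 in cultured dexamethasone. The untreated and PBS arrays were alike, the injected dexamethasone array lay between them and the cultures, and the cultured levels lay near the lower quartile of those arrays, at 2.97 for ethanol. With dexamethasone in vivo the level was 4.11-fold lower than with PBS, a difference of -2.04 that was the ninth lowest among the kept genes. The other probe sets of S1pr3 pointed the same way in vivo, with differences of -1.55 (from 6.32 to 4.76) and -0.89 (from 4.01 to 3.12). In culture the 3 probe sets differed by -0.43, -0.07 and 0.13 between dexamethasone and ethanol, from ethanol levels of 3.10, 3.90 and 2.67. In the authors' deposited table of in vivo differences, 2 of the S1pr3 probe sets were listed, with M values of -2.04 and -1.55.

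Markers of the cells that could carry S1pr3 are given beside this result. Summed over all 8 endothelial markers measured, linear intensity was 514 with PBS and 512 with injected dexamethasone. It was 11366 and 12568 for 9 thymic epithelial markers, 1828 and 2257 for 7 fibroblast markers, and 8996 and 10254 for 9 macrophage markers. No marker of these lists was under the lower quartile of the injected dexamethasone array. Of these sums only the endothelial one was below its PBS value, at a ratio of 0.995. Pecam1, the largest part of that sum, read 7.89 with PBS and 7.65 with injected dexamethasone. Of the 8 endothelial markers 3 were lower, and the median difference over the list was 0.005. The largest difference of that list was upward, Emcn at 1.89 (from 3.62 to 5.51). Emcn was under the level filter and was named after its value was seen. Within the epithelial list, 4 of 9 markers were lower with injected dexamethasone and 2 of them at least 2-fold: Psmb11, a proteasome subunit gene of cortical epithelium, at -1.46, and Foxn1, the transcription factor gene of thymic epithelial identity, at -1.02 and under the level filter. These 2 were named after their values were seen. In ethanol culture the representative S1pr3 probe set was at least 26.5-fold lower than untreated (-4.73). That is a lower bound for this probe set, because its ethanol level of 3.10 lay near the lower quartile. The other S1pr3 probe sets differed less, by -2.27 (from 6.17 to 3.90) and -1.10 (from 3.76 to 2.67) in ethanol culture. There the sums were 275 against 10340 for thymic epithelium, 92.1 against 2086 for fibroblasts and 769 against 8614 for macrophages, with all 9, 7 and 9 markers at least 2-fold lower. Endothelial markers summed to 381 against 499, with 7 of 8 lower and 2 at least 2-fold. The exception was Pecam1, the largest part of that sum, at 8.01 against 7.68. The part of these cells in the S1pr3 level was not tested. For the remaining lists, with PBS and injected dexamethasone, the sums were 17555 and 11555 for 8 double-positive thymocyte markers, all 8 of them lower, and 3903 and 3924 for 8 mature single-positive markers. They were 468 and 468 for 8 dendritic cell markers and 354 and 292 for 6 B cell markers.

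**Figure D2:**
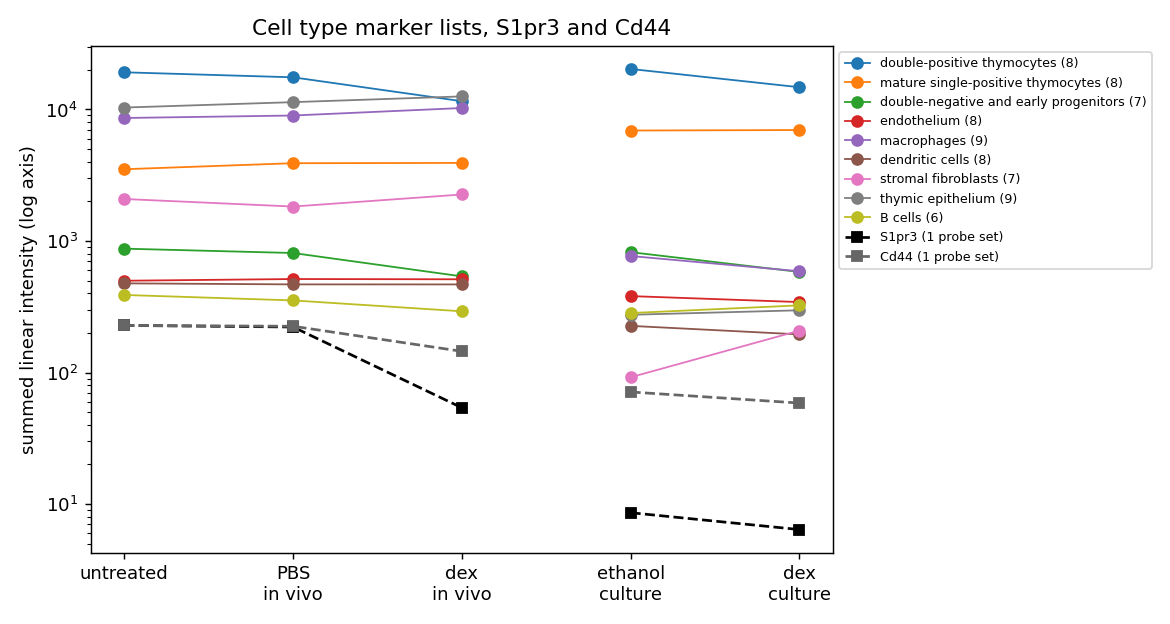
Summed linear intensity (log axis) of the 9 marker lists, with the number of genes in brackets, and the linear intensity of the S1pr3 and Cd44 probe sets on the 5 arrays. Epithelial, fibroblast and macrophage sums are lower on both cultured arrays than on the other 3, whereas on the injected dexamethasone array these sums are above PBS and S1pr3 is below it.

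The 3 kept genes whose profile over the 5 arrays lay nearest to that of S1pr3 were Diras2, Cxcl11 and Psmb11. Nearness was the root mean square distance between log2 profiles centred on their own means, and it was 0.34, 0.40 and 0.46 for these genes. Psmb11 is the epithelial marker named above, and Cxcl11 is a chemokine gene. Psmb11 read 7.39 untreated, 7.52 with PBS, 6.06 with injected dexamethasone, 3.31 in ethanol culture and 3.53 in cultured dexamethasone. Like S1pr3, it was thus lower in vivo with dexamethasone (-1.46) and lowest on the cultured arrays. Psmb11 was selected here for nearness over these same arrays, so this likeness is no separate result. Cxcl11 differed by -1.18 in vivo and Diras2 by -1.33, and both were at least 4 log2 units lower in ethanol culture than untreated (-4.46 and -4.54). The number of kept genes within 0.3 of S1pr3 was 0.

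For orientation, the 250 bases before the S1pr3 transcription start are shown as RefSeq gives them for GRCm38.p6 (chr13:51408368-51408617, plus strand), because this gene had the largest in vivo difference. Capitals mark CACCC or its reverse complement, the core read by Krüppel-like factors such as KLF2, which is known to drive S1pr1 in T cells.
S1pr3: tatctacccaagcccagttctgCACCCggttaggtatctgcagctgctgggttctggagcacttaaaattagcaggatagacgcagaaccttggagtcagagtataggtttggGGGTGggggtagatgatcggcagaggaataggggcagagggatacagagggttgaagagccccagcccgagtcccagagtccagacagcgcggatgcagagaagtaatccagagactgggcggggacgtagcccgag
The window held 2 such matches and 0 of TGTTCT, a hexamer bound by the glucocorticoid receptor, on either strand. Of 32851 RefSeq promoter windows of the same length, 52% held CACCC and 16.1% held TGTTCT on either strand. Of the 5 genes with an entry (S1pr3, S1pr4, Itga4, Itgb7 and Cd44), Itgb7 held TGTTCT, once, and Cd44 had no CACCC. Neither motif contains the other, and a match describes the window only.

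S1pr1, the receptor that guides thymocyte egress, differed in opposite directions between the living animal and culture. Its probe set read 6.14 untreated, 6.08 with PBS, 6.32 with injected dexamethasone, 7.34 in ethanol culture and 6.47 in cultured dexamethasone. The ethanol culture stood apart, and the other 4 arrays lay within 0.40 of each other. In vivo the difference was 0.24, with 82.0% of kept genes below it, while in culture it was -0.87, or 1.83-fold lower, a value that 1.36% of kept genes went below. Ethanol culture itself was 2.30-fold above untreated (1.20), and cultured dexamethasone was 0.33 above untreated. The in vitro value and the culture value share the ethanol array.

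S1pr4, a receptor of lymphoid and myeloid cells, read 6.77 untreated, 7.04 with PBS, 7.28 with injected dexamethasone, 8.26 in ethanol culture and 8.40 in cultured dexamethasone. Both cultured arrays lay above the other 3. The differences with dexamethasone were small, 0.24 in vivo and 0.14 in vitro, whereas ethanol culture was 2.81-fold above untreated. Of the remaining receptors of the family, S1pr2 differed by -0.35 in vivo and -0.12 in vitro. S1pr5 lay between 2.25 and 2.53, under the lower quartile of every array.

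**Figure D3:**
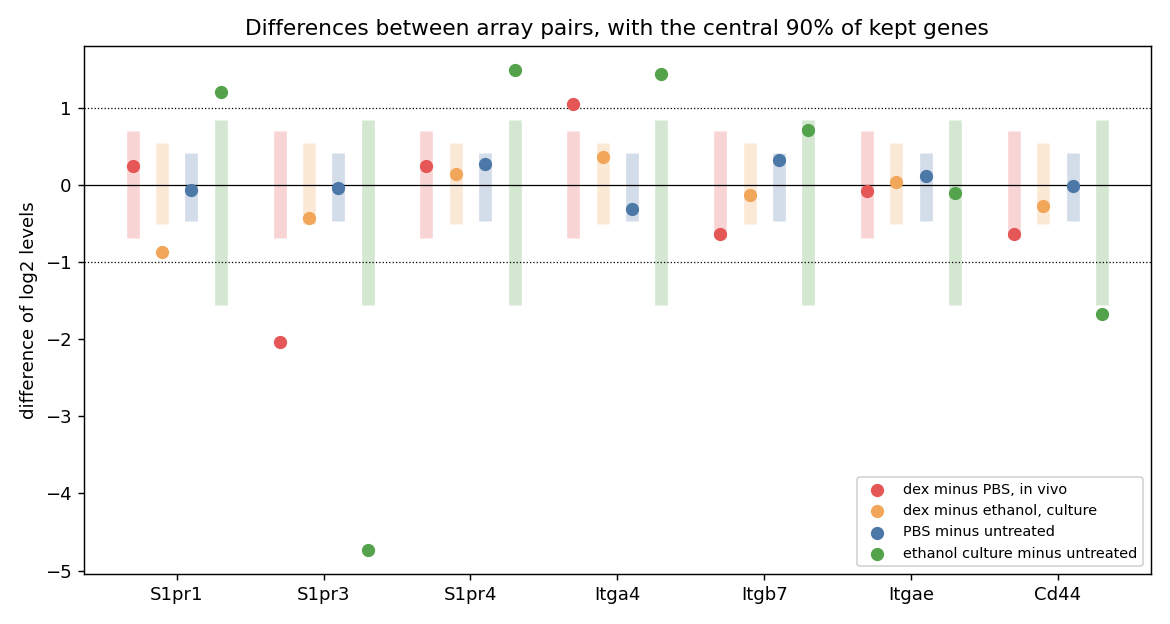
Difference of log2 levels (y axis) between array pairs for the representative probe set of each gene, with 1 array on each side. Shaded bars span the central 90% of kept genes for that comparison, dotted lines mark 2-fold, and S1pr3 and Itga4 pass 2-fold in vivo whereas none of the 7 does in the in vitro dexamethasone comparison.

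Itga4 was higher with injected dexamethasone than with PBS on all 5 of its probe sets that lay above the lower quartile. The representative one read 8.27 untreated, 7.97 with PBS, 9.02 with injected dexamethasone, 9.72 in ethanol culture and 10.08 in cultured dexamethasone. PBS was thus the lowest array, and both cultures the highest. The in vivo difference was 1.05 (2.07-fold), and on the other 4 probe sets it was 1.55, 0.52, 0.63 and 1.66. The size depended on the control, because all 5 probe sets were lower with PBS than untreated, by -0.31, -0.64, -0.76, -0.62 and -1.28 in the same order. Against the untreated array, injected dexamethasone stood at 0.74, 0.91, -0.24, 0.00 and 0.38, so none reached 2-fold and 1 was below 0. The in vivo and PBS differences share the PBS array.

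In culture the Itga4 probe sets split. The differences between dexamethasone and ethanol were 0.36, 0.15, -0.02, -0.27 and -0.01. Ethanol culture was above untreated on all 5, between 0.37 and 2.02. The authors' deposited table listed 3 Itga4 probe sets, with M values of 1.05, 1.66 and 1.55.

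**Figure D4:**
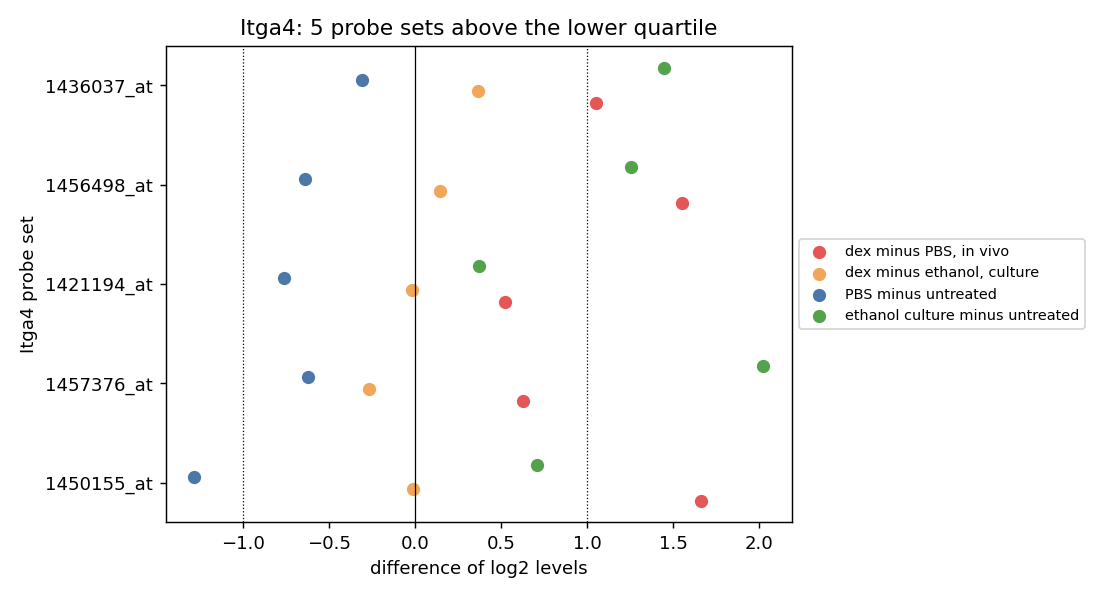
Differences of log2 levels (x axis) for the 5 Itga4 probe sets above the lower quartile (y axis), with 1 array on each side and dotted lines at 2-fold. All 5 in vivo dexamethasone points lie right of 0 and all 5 PBS minus untreated points left of it, while the in vitro dexamethasone points lie between -0.27 and 0.36.

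The upstream window of Itga4 (RefSeq, GRCm38.p6, chr2:79255176-79255425, plus strand) is shown because it was the gene of the set at least 2-fold higher in vivo. Capitals again mark CACCC or its reverse complement, with 4 matches, and TGTTCT had 0.
Itga4: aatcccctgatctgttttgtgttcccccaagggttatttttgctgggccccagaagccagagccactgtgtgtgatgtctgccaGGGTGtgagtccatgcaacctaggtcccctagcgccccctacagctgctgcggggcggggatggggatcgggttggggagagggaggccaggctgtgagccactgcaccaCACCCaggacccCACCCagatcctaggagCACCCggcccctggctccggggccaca

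The beta7 chain gene Itgb7, the partner of both alpha4 and alphaE, differed in the opposite direction to Itga4 in vivo. It read 7.45 untreated, 7.76 with PBS, 7.13 with injected dexamethasone, 8.16 in ethanol culture and 8.02 in cultured dexamethasone. The injected dexamethasone array was the lowest of the 5, 1.55-fold under PBS (-0.63) but only -0.31 from untreated, and the cultured arrays were the highest. In culture dexamethasone and ethanol differed by -0.14.

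Itgae, by its representative probe set, varied least of the 7 genes over the arrays. Its probe sets read 7.56 and 7.20 untreated, 7.67 and 7.12 with PBS, and 7.59 and 6.81 with injected dexamethasone. In ethanol culture they read 7.45 and 6.99, and in cultured dexamethasone 7.49 and 6.90. The representative probe set spanned 0.22 log2 units over the arrays and the other 0.39. Their in vivo differences were -0.08 and -0.31.

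Cd44, which marks early progenitors among thymocytes and is also carried by macrophages and stromal cells, read 7.83 untreated, 7.81 with PBS, 7.18 with injected dexamethasone, 6.15 in ethanol culture and 5.87 in cultured dexamethasone. Untreated and PBS were alike, and the cultures were the lowest. In vivo the difference was -0.63 (1.55-fold lower), with -0.73 and -0.39 on the other probe sets above the lower quartile. In vitro the differences were -0.28, -0.20 and -0.35, so all 3 probe sets were lower with dexamethasone in both settings. In ethanol culture Cd44 was 3.20-fold lower than untreated (-1.68), beside the macrophage and fibroblast sums given above. With injected dexamethasone those sums were above their PBS values, while 7 markers of double-negative and early progenitor thymocytes summed to 538 against 810, with 4 of 7 lower. Notch1, chosen after its value was seen, accounted for that drop in the sum, at 9.08 with PBS and 8.06 with injected dexamethasone. The other 6 markers summed to 272 against 268, with 3 higher and 3 lower. The part of these cells in the Cd44 level was not tested.

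Counted over the 7 genes, 1 (Itga4) was at least 2-fold higher in vivo, where 2.71% of kept genes were, and 1 (S1pr3) was at least 2-fold lower, where 1.48% were. In vitro 0 were 2-fold higher (1.53% of kept genes) and 0 lower (0.86%), and the same held for PBS against untreated (0.192% higher and 0.374% lower). The median difference was -0.08 in vivo, beside -0.07 over the kept genes, and -0.14 in vitro, beside 0.04. The dexamethasone comparisons share no array.

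A limma model over the 4 treated and vehicle arrays, with setting as a term, gave the mean dexamethasone difference over both settings, with Benjamini-Hochberg adjustment over 9882 genes. Its 1 residual degree of freedom is the disagreement between animal and culture. Variation among pools is mixed into that disagreement and cannot be told apart from it, because each group had 1 pool. limma adds 8.93 prior degrees of freedom taken from the kept genes. The SEs and intervals below therefore rest largely on the spread of other genes. Of the 7 genes, 0 rose and 0 fell, against 2.34% and 1.46% of the kept genes. At an unadjusted limma p under 0.05 there were 2 of 7 (Itga4 and S1pr3), beside 1262 of 9882. Nothing is read from that count, because S1pr3 has a culture pair near the lower quartile. Itga4 came nearest, with a mean difference of 0.71 (SE 0.183, 95% interval 0.30 to 1.12, limma adjusted p = 0.0715). S1pr3 had -1.23 (SE 0.367, 95% interval -2.05 to -0.41, limma adjusted p = 0.126), Cd44 -0.46 (SE 0.208, limma adjusted p = 0.406) and Itgb7 -0.38 (SE 0.195, limma adjusted p = 0.487). For S1pr1 the interval of the mean difference ran from -0.92 to 0.29, for S1pr4 from -0.21 to 0.59 and for Itgae from -0.43 to 0.39. The S1pr3 mean includes a culture pair near the lower quartile, at 3.10 and 2.68, so it is given as a description and nothing is read from its p. With each array centred on its median, Itga4 passed (limma adjusted p = 0.000703), and under the other settings tried it did not, with limma adjusted p from 0.239 to 1.

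Culture with ethanol, compared with the untreated suspension, separated the 7 genes most. S1pr4 (1.49), Itga4 (1.44) and S1pr1 (1.20) were at least 2-fold higher, where 3.1% of kept genes were. S1pr3 and Cd44 were at least 2-fold lower, where 8.07% were. S1pr3 reached the level filter through its levels in the untreated and injected animals, so its place among the lower genes is partly built in. Itgb7 stood at 0.71 and Itgae at -0.11. In the same comparison 8 markers of mature single-positive thymocytes, the cells that leave the thymus, had a summed intensity of 6917 against 3513, and 7 of the 8 were higher. The exception was Cd69 at -2.82, the largest difference of that list in either direction, while Klf2 stood at 2.03 and Ccr7 at 1.32. Double-positive markers summed to 20318 against 19164. The part of these shifts in the S1pr1, S1pr4 and Itga4 values was not tested.

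Around S1pr1, several genes of thymic egress passed the limma test although the receptor itself did not. Cd69, whose product lowers surface S1PR1, rose by 1.05 (SE 0.214, limma adjusted p = 0.0235), with 0.83 in vivo and 1.28 in vitro, the latter from an ethanol level of 4.89 against 7.72 untreated. Grk2, a kinase that desensitises S1PR1, fell by 0.73 (SE 0.140, limma adjusted p = 0.0183), with -0.69 in vivo and -0.77 in vitro. Of 5 kept genes of S1P synthesis, export and breakdown, 1 rose: Sgpp1, an S1P phosphatase, by 1.28 (SE 0.173, limma adjusted p = 0.00291). It read 7.99 untreated, 8.11 with PBS, 9.54 with injected dexamethasone, 7.36 in ethanol culture and 8.49 in cultured dexamethasone, so each treated array was above its vehicle and the injected one was the highest of all. Sgpl1, the S1P lyase, stood at -0.31 in vivo and 0.29 in vitro, and Plpp3, a lipid phosphatase, at 0.54 and 0.59. The Plpp3 level in ethanol culture was 2.98, near the lower quartile of that array, 2.97, against 6.77 untreated. Of the genes that did not reach the level filter, the S1P kinase gene Sphk1 differed by -0.09 and -0.53, and Plpp2 by -0.37 and -0.06.

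Of 11 kept genes of the egress and homing programme, 2 rose and 2 fell, beside 2.34% and 1.46% of all kept genes. Il7r, the interleukin 7 receptor chain, rose by 0.67 beside Cd69, while Gfi1, a transcriptional repressor, fell by 0.91 and the chemokine receptor gene Ccr9 by 0.43 (limma adjusted p = 0.0493, 0.0258 and 0.0349). Il7r and Cd69 are also on the list of mature single-positive markers, whose summed intensity with dexamethasone was 1.01 times that with vehicle in both settings. That sum includes both called genes, and 4 of the 8 markers were lower in vivo and 6 in vitro. Of 8 double-positive markers 4 fell in the same test, and their summed intensity was 0.658 of vehicle in vivo and 0.726 in vitro. The part of these cells in the calls was not tested. Klf2, the activator of S1pr1 in T cells, stood at 0.18 in vivo and -0.11 in vitro. Foxp1, a transcription factor gene, stood at 0.82 and 0.21, Plxnd1 at -0.53 and -0.47, and Ccr4, under the level filter, at -1.33 and -0.64. Of 13 genes of S1P receptor signalling, Grk2 was the 1 that passed. The other arms of that list differed less, with Arrb1, a beta-arrestin gene, at -0.49 and -0.37, Rac2, a small GTPase gene, at -0.47 and -0.08, Arrb2 at 0.07 and 0.39, and Gnai3 at 0.33 and 0.32.

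**Figure D5:**
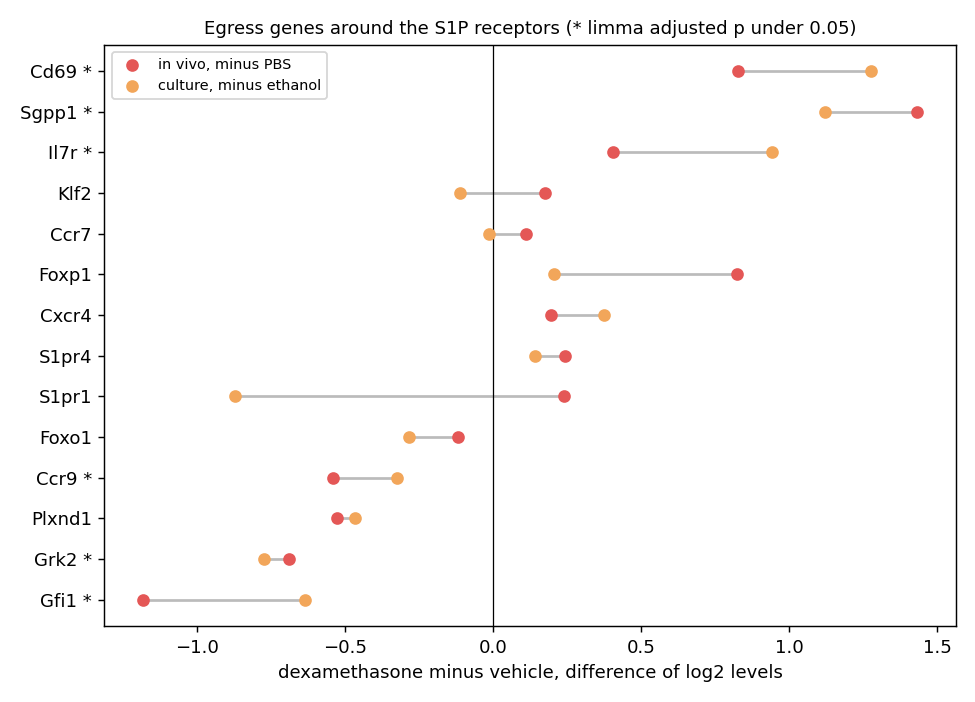
Dexamethasone minus vehicle (difference of log2 levels, x axis) in vivo and in culture, 1 array on each side, for S1pr1, S1pr4 and genes of egress, S1P breakdown and receptor desensitisation (y axis). Stars mark genes that passed the limma test, and the points of S1pr1 lie at 0.24 and -0.87, farther apart than those of any other gene shown.

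Among the other integrin chains, 0 of 3 kept alpha and 0 of 4 kept beta chain genes rose or fell in the limma test. Itgb1, the alternative partner of alpha4, stood at 0.07 in vivo and -0.45 in vitro. Itgb2 stood at -0.40 and -0.12, Itgb5 at -0.02 and 0.49, and Itgal, the alpha chain of LFA-1, at 0.19 and 0.39. Under the level filter, Itga1 stood at 1.26 and 0.41, Itgax at -0.33 and -1.11, Itga8 at 0.47 and -0.21, and Itgb3 at -0.35 and -0.64. The ligands were measured in the same suspensions. Of 6 kept ligand genes 0 rose and 1 fell: Lgals9, which encodes galectin-9, a CD44 ligand, by 0.65 (SE 0.125, limma adjusted p = 0.0186). Vcam1, the vascular ligand of alpha4, stood at 1.07 in vivo and 0.63 in vitro (limma adjusted p = 0.0542). Cdh1, E-cadherin and ligand of alphaE beta7, stood at 0.54 and -0.57, and Fn1, fibronectin, at 0.70 and -0.77. The in vitro value of Cdh1 started from an ethanol level of 3.89, against 7.73 untreated. Has3, a hyaluronan synthase gene under the level filter, stood at -1.11 and 0.01. Its levels with injected dexamethasone (2.78), in ethanol culture (2.91) and in cultured dexamethasone (2.92) lay under the lower quartiles of those arrays.

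Of 10 kept genes of integrin activation 0 passed, and the largest difference was that of Vcl, vinculin, at 1.24 in vivo and 0.47 in vitro (limma adjusted p = 0.0651). Tln1, which encodes the integrin activator talin, stood at -0.35 and 0.18, Rap1b at 0.20 and 0.33, and Pxn at -0.23 and 0.27. Of 7 kept genes that link CD44 to the cytoskeleton or act on it, 0 passed. Ezr, ezrin, stood at -0.57 and -0.31, Mmp14 at -0.26 and -0.40, and Ank1 at 0.18 and 0.04. Lyve1, a hyaluronan receptor related to CD44 and known from lymphatic endothelium and some macrophages, was below the level filter. It read 3.39 untreated, 3.16 with PBS, 6.46 with injected dexamethasone, 2.73 in ethanol culture and 2.47 in cultured dexamethasone. The injected dexamethasone array stood alone, at least 3.30 above PBS, a lower bound because the PBS level lay near the lower quartile of that array, 2.99, and this gene was not in the limma test.

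The other searched genes had at least 35 kept genes within 0.3, against 0 for S1pr3. The nearest to S1pr1 were D8Ertd51e, Tmem245 and Scin, at distances of 0.09, 0.12 and 0.12, with 433 kept genes within 0.3. The nearest to S1pr4 were Xpa, Cenph and Acss1, at 0.09, 0.10 and 0.11. For Itga4 they were Patj, 9530077C05Rik and Tent5c, at 0.12, 0.13 and 0.15, with 35 genes within 0.3. Patj differed by 1.31 in vivo and 0.51 in vitro, a likeness to Itga4's representative probe set that its selection by profile builds in. For Itgb7 they were Bcl2l12, Gnb4 and Crtc3, at 0.02, 0.05 and 0.05. For Cd44 they were Blnk, Sh3bp2 and Lbp, at 0.10, 0.12 and 0.12, with 116 genes within 0.3. Blnk, an adaptor of B cell receptor signalling, read 7.60 untreated, 7.62 with PBS, 7.01 with injected dexamethasone, 6.14 in ethanol culture and 5.57 in cultured dexamethasone. Itgae spanned too little to be searched.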

How the data were processed

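Groups of thymic cell suspensions were measured on Affymetrix arrays, 1 array each, and grouped by sample title. RMA was used by the authors per the submitters' processing notes, with no version named there. The series matrix holds the authors' linear intensity per probe set. The deposited expression table holds log2 values that equalled the log2 of that matrix to within 7.11e-15, and these were used. The deposited tables of differences hold log2 differences of the same values.

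Probe sets were named by symbol, accession or unique synonym through RefSeq genes of GRCm38.p6. Each gene was represented by its probe set of highest mean, and genes at or above the median of these means (5.28) were kept. Differences of at least 1 were counted. limma 3.58.1 in R 4.3.3 (lmFit, eBayes with a mean-variance trend) fitted setting and dexamethasone, with Benjamini-Hochberg adjustment and a threshold of 0.05. The script was tested on simulated data. The genes and the 18 lists, 9 of them cell type markers, were chosen with earlier results of these data known. From each list that is not of markers, the text names the genes that passed and up to 4 others with the largest difference in either dexamethasone comparison. A single gene that this rule names is not reported here. The 3 nearest profiles were named for genes spanning at least 1. Alternatives changed the level filter, the probe set rule, centring, fold, trend, setting term and control array.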

Additional observations from a re-analysis of the deposited data

Results flagged for a closer look

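S1pr1 and Itgae were picked out because their responses to dexamethasone had opposite signs in the living animal and in culture. For S1pr1 the in vivo response exceeded the in vitro response by 1.11, from 0.24 and -0.87. Against the untreated array the S1pr1 values were 0.17 in vivo and 0.33 in culture, both above 0. The opposite sign of S1pr1 thus depended on the ethanol array, at 7.34. For Itgae the in vivo response minus the in vitro response was -0.12, from -0.08 and 0.04, both close to 0. The opposite sign of Itgae held on its representative probe set only: the other had -0.31 and -0.08, and the mean of both had -0.19 and -0.02. Against the untreated array the representative values were 0.03 and -0.07. With 1 array per group neither difference was tested.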

How the results depend on the processing

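With 1 array per group, no array could be left out. No paired analysis by replicate number was possible because the labels give none, and the setting term of the limma model already compares each dexamethasone array with its own vehicle. In the order higher, lower, the main counts over kept genes were 268 and 146 in vivo, 151 and 85 in vitro, 19 and 37 for PBS and 306 and 797 for ethanol culture. Without the level filter, 449 genes were higher in vivo, 30 higher and 79 lower with PBS, and 1411 lower in ethanol culture. At 1.5-fold the counts over the 9882 kept genes were 640 and 728 in vivo, 432 and 370 in vitro, 167 and 247 with PBS, and 1076 and 1411 in ethanol culture. Of the 7 genes 3 were then lower in vivo, beside 728 of 9882, and 1 in vitro, beside 370 of 9882. With each of the 45101 probe sets as its own feature they were 929 and 331, 328 and 346, 61 and 258, and 1049 and 2260. Of the members' 20 probe sets, 3 were then higher and 2 lower in vivo, 1 lower with PBS, and 5 higher and 6 lower in ethanol culture. With the mean of a gene's probe sets, 53 genes were lower in vitro, 0 of the 7 were higher and 0 lower in vivo, and 1 was lower in ethanol culture. S1pr3 then missed the level filter, at -1.49 in vivo, and Itga4 stood at 0.67. Against the untreated array, 222 genes were lower with injected dexamethasone and 0 of the 7 higher, with Itga4 at 0.74. For cultured dexamethasone against untreated, 496 genes were higher and 844 lower, 2 of the 7 higher and 2 lower, and S1pr1 stood at 0.33 instead of -0.87.

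The limma test called 231 genes higher and 144 lower, 92 and 29 with the mean of probe sets, 94 and 32 without the trend, and 417 and 271 with arrays centred on their medians. It called 0 and 0 without the level filter (1313 genes at unadjusted p under 0.05), 0 and 0 with every probe set (2613) and 0 and 0 with no replicate block, that is without the setting term (324). Of the 7 genes, Itga4 passed the limma test with centred arrays and in none of these other fits. S1pr3 also had an adjusted p of 0.00169 there, which rests in part on its culture pair near the lower quartile and supports nothing. The cause of these shifts was not tested. No value past 2-fold or the limma threshold changed sign. Low signal limits S1pr3 in culture, where its probe set lay at 3.10 and 2.68 beside lower quartiles of 2.97 and 2.98.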
